A study of Mus musculus with 48 samples.

Results

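Transcript levels of 10 genes of the Nrf2 antioxidant pathway were followed in 24 mouse cell clones, each with 1 library from its progenitor state and 1 from its monocytic state. The genes were chosen by name, with earlier results of these data known: Nfe2l2, Keap1, Nqo1, Gclm, Gclc, Txnrd1, Srxn1, Slc7a11, Prdx1 and Gsr. All 10 were among the 34617 named rows of the deposited table, and all 10 were among the 11072 genes with a mean of at least 1 TPM over the 48 libraries. TPM is a transcript level corrected for transcript length and scaled to the library total. The sources name mouse bone marrow as the origin, ER-Hoxb8 granulocyte-monocyte progenitors (GMP) as one state (n = 24) and ER-Hoxb8 monocytic cells as the other (n = 24), and their series title concerns distinct subsets of blood monocytes. ER-Hoxb8 cells are progenitors held in a dividing state by Hoxb8 fused to an estrogen receptor domain, and they mature once that protein is switched off. Both states therefore come from the same ER-Hoxb8 clones, and the growth protocol given for them names RPMI medium, serum and stem cell factor. The mouse strain, its age, the promoter driving ER-Hoxb8 and the time of maturation are not stated in the labels. A clone is the replicate, with 1 library per state, so the spread within a clone was not measured. In bulk RNA, fewer cells of a type and less RNA per cell cannot be told apart.

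Nfe2l2 encodes NRF2, a transcription factor that KEAP1 binds in the cytoplasm and passes to the proteasome. Oxidants and electrophiles modify cysteines of KEAP1, NRF2 then builds up, pairs with small MAF proteins and binds antioxidant response elements near genes that make glutathione, reduce thioredoxin and detoxify quinones. In myeloid cells the pathway is known for limiting the damage done by the oxidants that phagocytes make and for restraining inflammatory gene expression.

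The element is printed here because it is the feature by which these genes are usually grouped. The RefSeq promoter table (build GRCm38.p6, from 250 bases before to 50 bases after each start) held 8 of the 10 genes, all but Gclc and Gsr, with 10 promoters between them since Txnrd1 has 3. The core TGACNNNGC, searched on both strands, was in 5 of these 10 promoters, those of 5 genes, and in 12.4% of all 32851 promoters of the same length. Each line below runs along the strand of the gene, with the match in capitals.
Nfe2l2, chr2:75704884-75704913, minus strand: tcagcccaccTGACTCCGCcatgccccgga
Gclm, chr3:122245413-122245442, plus strand: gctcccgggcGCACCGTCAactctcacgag
Prdx1, chr4:116685456-116685485, plus strand: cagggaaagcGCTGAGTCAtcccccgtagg
Txnrd1, chr10:82859104-82859133, plus strand: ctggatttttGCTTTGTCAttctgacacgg
Srxn1, chr2:152105542-152105571, plus strand: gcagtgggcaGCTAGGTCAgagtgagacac
The Nfe2l2 match is on the strand of the gene and the other 4 are on the opposite strand. The Prdx1 match also contains TGACTCA, the AP-1 site, on the opposite strand. TGACTCA was in 5.20% of all promoters and, among these genes, in those of Prdx1 and Srxn1. Slc7a11, which is also a target of the amino acid stress factor ATF4, had no core in this window but 2 matches to TGATGCAA, a form of the amino acid response element that 0.895% of all promoters held. These 2 matches face each other, on opposite strands, within the following windows.
Slc7a11, first match, chr3:50443661-50443690, minus strand: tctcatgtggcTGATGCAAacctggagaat
Slc7a11, second match, chr3:50443642-50443671, minus strand: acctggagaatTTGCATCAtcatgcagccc
A match describes these letters only, and no binding was measured in these libraries.

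Libraries differed in ways other than state. Clones 1 to 13 (n = 13) and clones 15 to 26 (n = 11) parted in earlier results of these data, although the sources name no batch. Mitochondrial transcripts took 5.73% ± 1.44 (SD, n = 13) of progenitor TPM in the first set and 11.97% ± 2.06 (SD, n = 11) in the second, and 5.11% ± 2.07 and 11.6% ± 6.95 of monocyte TPM. Genes at 1 TPM or more numbered 8240 to 11030 in progenitors and 9436 to 10717 in monocytes. A library stood apart in 3 clones: progenitor 21 with 23247 genes at 0, progenitor 24 with the lowest number of genes at 1 TPM or more, and monocyte 26 with 25.1% mitochondrial TPM. The summed level of 6 progenitor markers had a median of 904 TPM in progenitors and 57.7 TPM in monocytes. The 8 monocyte markers summed to 2116 to 20423 TPM in the monocyte libraries (median 11516). Lyz2 led this sum, while Ccr2 alone of the 8 fell in mean, from 64.2 TPM in progenitors to 38.3 TPM in the monocyte libraries. The 8 neutrophil markers, led by S100a8 and S100a9, summed to 344 to 184553 TPM there (median 73434), and all 8 had a mean of at least 1 TPM. The libraries labelled monocytic thus held more transcript from the neutrophil list than from the monocyte list at their medians, and the part of this in the results below was not tested. Depth is unknown because TPM keep none.

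Of the 10 genes, 7 were higher in monocytes than in progenitors of the same clones, none was lower, and 3 did not pass (limma with clone as block, Benjamini-Hochberg adjusted p below 0.05 over 11072 genes). Across all genes tested 68.8% passed, 32.4% higher and 36.5% lower. The median log2 change of the 10 genes was 1.08, against -0.06 over all genes. Srxn1 and Gsr had the highest log2 changes at pseudocounts of 0.1, 1 and 5, though not in the same order, and among the genes that passed Keap1 and Nqo1 had the lowest. Gclm, Gclc and Txnrd1 did not pass over all 24 clones, but their changes differed between the sets of clones. All log2 changes are of log2(TPM + 1), which understates the change of genes at a few TPM.

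**Figure D1:**
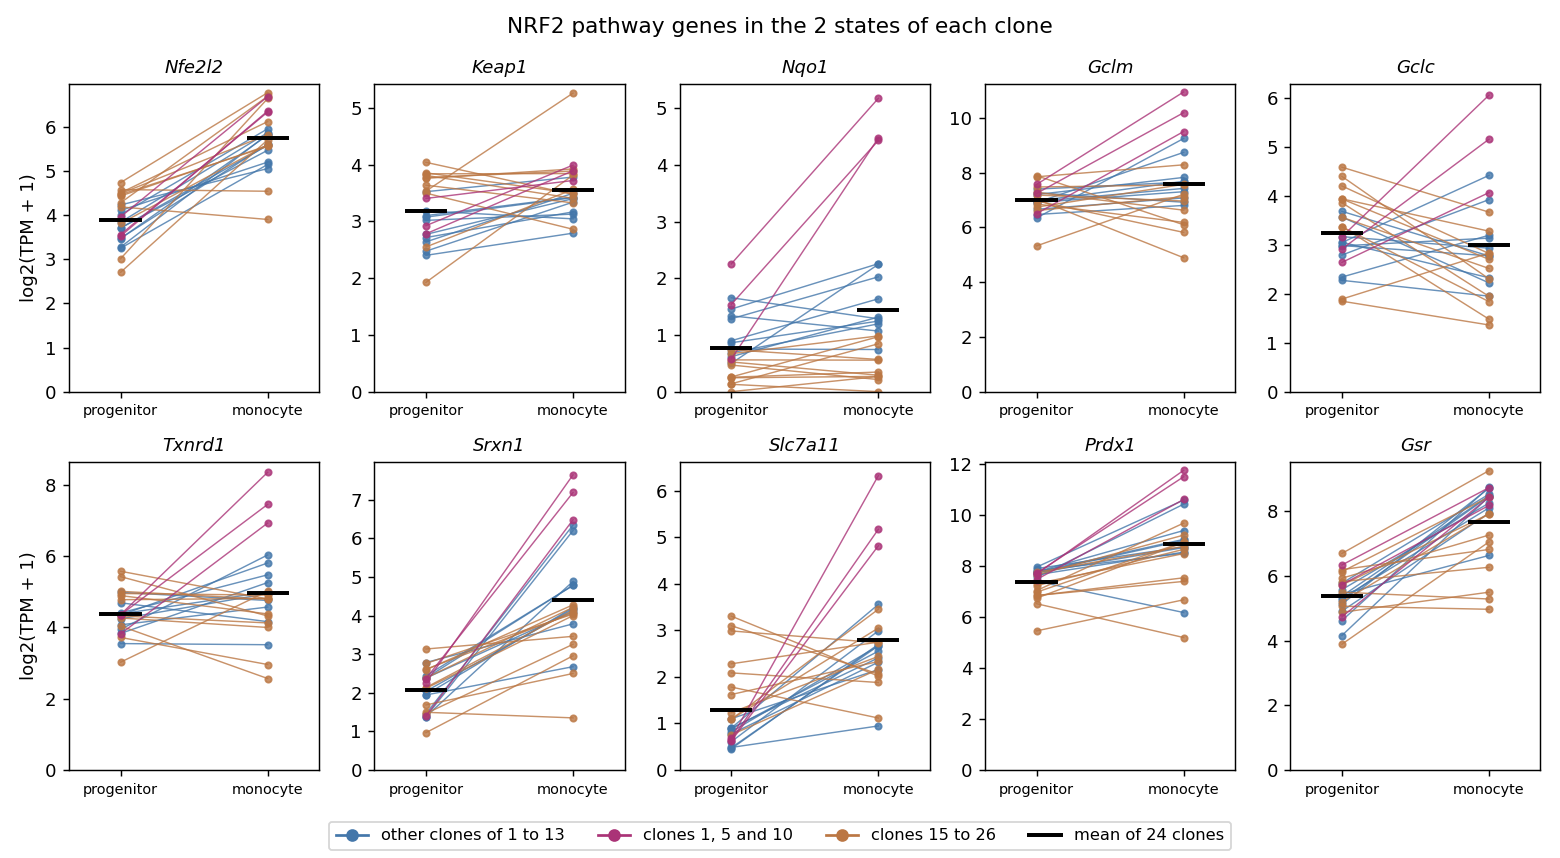
Level of each of the 10 genes in the progenitor (left) and monocyte (right) library of 24 clones, as log2(TPM + 1) on the vertical axis, with 1 line per clone, colours for clones 1, 5 and 10, the other clones of 1 to 13 and clones 15 to 26, and a black bar at the mean of each state. Clones 1, 5 and 10 rise to the top of the monocyte column for Nqo1, Gclm, Txnrd1, Srxn1, Slc7a11 and Prdx1, and their progenitor levels lie within the range of the other clones except for clone 1 in Nqo1.

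Nfe2l2 (mm10 chromosome 2, 75675513 to 75704641, minus strand, protein coding) went up together with its inhibitor Keap1, but by more. In progenitors Nfe2l2 ran from 5.52 TPM (clone 24) through a median of 13.9 to 25.7 TPM (clone 15). In monocytes it ran from 13.9 TPM (clone 19) through 53.2 to 109 TPM (clone 15). The monocyte library was above the highest progenitor in 22 clones, and only clones 19 and 22 were lower as monocytes than as progenitors. Its log2 change was 1.86 (SE 0.18, limma adjusted p = 7.72e-10), higher in 22 of 24 clones.

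Keap1 (chromosome 9, 21229730 to 21239361, minus strand), the substrate adaptor that brings NRF2 to the CUL3 ubiquitin ligase, ran from 2.80 TPM (clone 24) through 7.83 to 15.4 TPM (clone 22) in progenitors. As monocytes the clones ran from 5.92 TPM (clone 9) through 10.2 to 37.3 TPM (clone 15). Only monocyte 15 was above every progenitor, while at the lower end several progenitors lay below the lowest monocyte. Keap1 changed by 0.38 on the log2 scale (SE 0.14, limma adjusted p = 0.0163), higher in 18 of 24 clones. The gene shares 11.9% of the 31-base words of its longest transcript with the antisense gene Gm16754. The deposited TPM held no entry under that name, and whether reads were counted by strand is not given. With mitochondrial, Gm-named and pseudogene entries left out and TPM rescaled, the median change over all genes moved from -0.06 to -0.25. The change of Keap1 was then 0.16 (limma adjusted p = 0.235). Without clones 1, 5 and 10, left out after values were seen, it was 0.32 (limma adjusted p = 0.0668). The call on Keap1 did not hold in either run. The ratio of Nfe2l2 to Keap1 TPM, a ratio of 2 transcript levels, had a median of 1.64 (1.27 to 2.43) in progenitors and 5.30 (1.55 to 9.16) in monocytes.

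The genes of cysteine uptake and glutathione synthesis differed in whether their change between states passed, and the difference between these genes was not tested. Over the monocyte libraries their levels went together, with r of 0.89 for Gclm and Gclc, 0.81 for Gclm and Slc7a11 and 0.71 for Gclc and Slc7a11. Slc7a11 (chromosome 3, 49892526 to 50443614, minus strand) encodes the light chain of the cystine-glutamate exchanger and rose. Gclc and Gclm, the catalytic and modifier subunits of glutamate-cysteine ligase, the rate-limiting enzyme of glutathione synthesis, did not pass. Slc7a11 ran from 0.372 TPM (clone 7) through 0.866 to 8.90 TPM (clone 23) in progenitors. The progenitors of clones 1 to 13 all lay between 0.372 and 1.15 TPM, while those of clones 15 to 26 spread from 0.686 to 8.90 TPM. In monocytes it ran from 0.927 TPM (clone 9) through 5.11 to 79.3 TPM (clone 1). Slc7a11 rose by 1.53 on the log2 scale (SE 0.32, limma adjusted p = 0.000139), higher in 13 of 13 clones of the first set and in 6 of 11 of the second. The annotated span of Slc7a11 overlaps 5 other genes, that of Txnrd1 3 and that of Gclm 2, and 3.53% of the 31-base words of the longest Slc7a11 transcript occur in other genes.

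Gclm (chromosome 3, 122245557 to 122270732, plus strand) was among the most abundant of the 10 in both states. Progenitors ran from 39.1 TPM (clone 21) through 124 to 236 TPM (clone 23). Monocytes ran from 28.7 TPM (clone 19) through 164 to 1976 TPM (clone 1). The upper end came from few clones: clones 1, 5, 10, 11 and 13 measured 1976, 1168, 725, 608 and 427 TPM. The log2 change was 0.59 (SE 0.28, limma adjusted p = 0.0637), higher in 17 of 24 clones. Leaving out 1 of the clones 15, 18, 19, 23 or 26 brought it past the threshold, with 0.64, 0.64, 0.70, 0.69 and 0.66 (limma adjusted p from 0.0216 to 0.0493).

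Gclc (chromosome 9, 77754535 to 77794485, plus strand) ran from 2.60 TPM (clone 21) through 7.95 to 22.9 TPM (clone 22) in progenitors and from 1.57 TPM (clone 21) through 5.94 to 65.3 TPM (clone 1) in monocytes. The states overlapped over most of their range. The log2 change was -0.24 (SE 0.26, limma adjusted p = 0.409), with 8 of 24 clones higher in monocytes. Without clones 1, 5 and 10 it was -0.59 (limma adjusted p = 0.0176). These clones were picked after their high monocyte levels of several of the 10 genes were seen. Leaving them out lowers the change by choice, so that value is no call of lower expression. The ratio of modifier to catalytic subunit transcripts (Gclm to Gclc TPM) had a median of 14.1 (8.51 to 35.9) in progenitors and 28.3 (11.8 to 93.7) in monocytes.

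Gsr (chromosome 8, 33652523 to 33698163, plus strand), glutathione reductase, which regenerates reduced glutathione with NADPH, showed another pattern over the clones. Progenitors ran from 13.8 TPM (clone 24) through 41.5 to 103 TPM (clone 20), and monocytes from 30.4 TPM (clone 26) through 283 to 614 TPM (clone 20). The same clone was highest in both states, and clone 1 was the only 1 of clones 1, 5 and 10 among the 3 highest monocytes. Gsr rose by 2.29 on the log2 scale (SE 0.25, limma adjusted p = 4.19e-09), higher in 22 of 24 clones.

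The thioredoxin branch rose in 2 of its 3 genes. Srxn1 (chromosome 2, 152105516 to 152111376, plus strand), sulfiredoxin, repairs overoxidised peroxiredoxins. It ran from 0.953 TPM (clone 21) through 3.36 to 7.78 TPM (clone 23) in progenitors and from 1.55 TPM (clone 19) through 16.8 to 199.7 TPM (clone 1) in monocytes. Srxn1 rose by 2.34 on the log2 scale (SE 0.30, limma adjusted p = 1.10e-07), higher in 23 of 24 clones. At a pseudocount of 5 it rose by 1.69 and Gsr by 2.19.

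Prdx1 (chromosome 4, 116685544 to 116700822, plus strand), a peroxiredoxin that reduces peroxides and is a substrate of sulfiredoxin, had the highest mean level of the 10 in both states. Progenitors ran from 42.6 TPM (clone 21) through 192 to 245 TPM (clone 13), and monocytes from 35.4 TPM (clone 19) through 456 to 3412 TPM (clone 1). Prdx1 rose by 1.50 on the log2 scale (SE 0.25, limma adjusted p = 5.87e-06), higher in 22 of 24 clones. Near-identical copies make its level less certain, since 18.1% of the 31-base words of its longest transcript occur in other genes. The copies sharing most, Gm21399 and Gm7204, reached 2.94 and 2.16 TPM at most in monocytes. The ratio of Prdx1 to Srxn1 TPM had a median of 50.5 (20.8 to 153) in progenitors and 22.5 (13.1 to 49.0) in monocytes.

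Txnrd1 (chromosome 10, 82833951 to 82897712, plus strand), cytosolic thioredoxin reductase, ran from 7.13 TPM (clone 24) through 19.4 to 46.6 TPM (clone 22) in progenitors and from 4.91 TPM (clone 19) through 26.9 to 325 TPM (clone 1) in monocytes. It was higher in monocytes in 12 of 24 clones, 10 of 13 in the first set and 2 of 11 in the second. The log2 change was 0.58 (SE 0.27, limma adjusted p = 0.0613). Leaving out 1 of the clones 8, 19, 21, 22 or 23 brought it to 0.63, 0.67, 0.64, 0.64 and 0.65, past the threshold (limma adjusted p from 0.0309 to 0.0492). With median-of-ratios scaling Gclm (0.62) and Txnrd1 (0.61) both passed (limma adjusted p = 0.0220 and 0.0149).

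Nqo1 (chromosome 8, 107388225 to 107403206, minus strand), the quinone reductase often used as the readout of NRF2 activity, had the lowest mean level of the 10 in both states. Progenitors ran from a listed 0 (clone 21) through 0.562 to 3.77 TPM (clone 1). Monocytes ran from a listed 0 (clone 20) through 1.04 to 35.1 TPM (clone 1). Clones 1, 10 and 5 measured 35.1, 21.2 and 20.6 TPM, and no other monocyte library exceeded 3.78 TPM. In clones 15 to 26 the gene was at or near 0 in both states, at most 0.671 TPM in progenitors and 0.977 TPM in monocytes. The log2 change was 0.67 (SE 0.22, limma adjusted p = 0.00813), higher in 16 of 24 clones. Without clones 1, 5 and 10, left out for their high monocyte levels, it was 0.30 (limma adjusted p = 0.0368).

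By mean TPM the order in progenitors was Prdx1, Gclm, Gsr, Txnrd1, Nfe2l2, Gclc, Keap1, Srxn1, Slc7a11 and Nqo1. Neighbours differed by more than the larger of their SDs only between Gclm and Gsr, Gsr and Txnrd1, and Keap1 and Srxn1. In monocytes the order was Prdx1, Gclm, Gsr, Nfe2l2, Txnrd1, Srxn1, Keap1, Gclc, Slc7a11 and Nqo1, and only Gsr and Nfe2l2 were separated in that way.

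The signed log2 change between states was lower in clones 15 to 26 than in clones 1 to 13 for 6 of the 10 genes, Gclm, Gclc, Txnrd1, Srxn1, Slc7a11 and Gsr (limma interaction, Benjamini-Hochberg adjusted p from 0.0112 to 0.0360). For none did the signed change pass as higher in the second set. Of all genes tested, 11.5% differed between the sets, 9.79% with the lower change in clones 15 to 26 and 1.66% with the higher. In clones 1 to 13 alone 9 of the 10 were higher in monocytes, all but Gclc, where 71.7% of all genes passed, 38.8% higher and 32.8% lower. In clones 15 to 26 alone 4 were higher, Nfe2l2, Srxn1, Prdx1 and Gsr, and Gclc was lower, where 45.2% of all genes passed, 17.8% higher and 27.4% lower. The median log2 change was 1.54 in the first set and 0.33 in the second, with 0.08 and -0.22 over all genes.

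**Figure D2:**
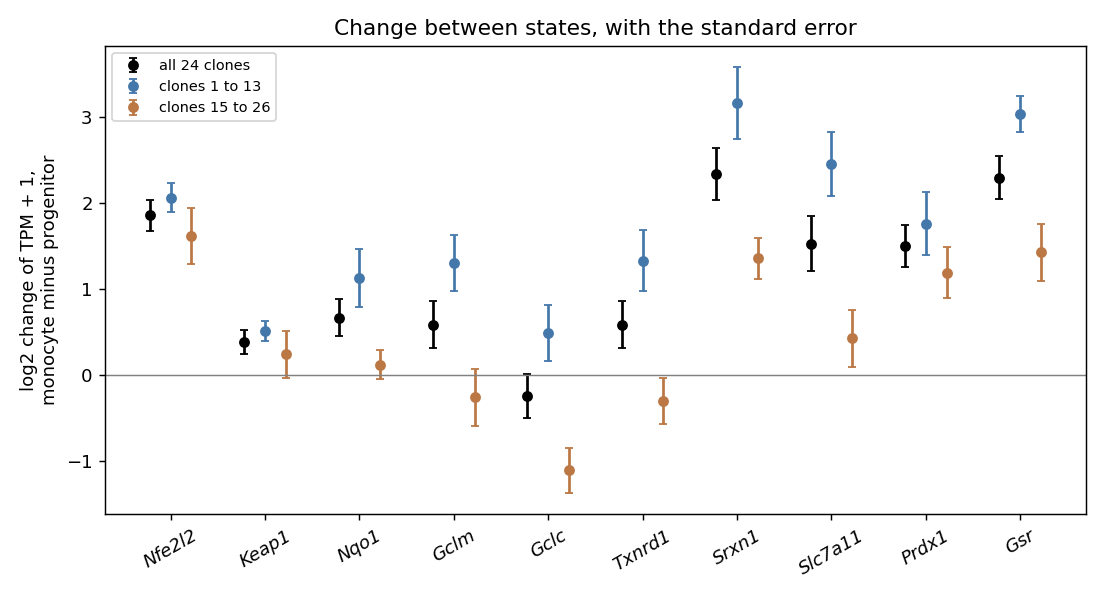
Log2 change from progenitor to monocyte (vertical axis, log2(TPM + 1) scale) for the 10 genes, with SE bars, over all 24 clones, clones 1 to 13 and clones 15 to 26. Nfe2l2 has 2.06 and 1.61 in the sets, while Slc7a11 goes from 2.46 to 0.42 and Gclc from 0.49 to -1.11.

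Slc7a11 rose by 2.46 in clones 1 to 13 and changed by 0.42 in clones 15 to 26 (limma adjusted p = 0.314 within that set), a difference of -2.03 (SE 0.52, limma adjusted p = 0.0145). Gclc measured 0.49 in the first set (limma adjusted p = 0.188) and fell by 1.11 in the second (limma adjusted p = 0.00310), where 1 of 11 clones was higher in monocytes. Txnrd1 rose by 1.33 in the first set and measured -0.30 in the second, and Gclm rose by 1.30 and measured -0.26. Srxn1 and Gsr rose in both sets, by 3.16 and 1.36 and by 3.03 and 1.43. For Nfe2l2 the changes of 2.06 and 1.61 did not pass the test of their difference (-0.45, SE 0.36, limma adjusted p = 0.426). Prdx1 (-0.57, limma adjusted p = 0.468), Keap1 (-0.27, limma adjusted p = 0.550) and Nqo1 (-1.01, limma adjusted p = 0.0916) did not pass either.

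The summed neutrophil markers in monocyte libraries moved with this split: their median was 83697 TPM (37408 to 149835) in clones 1 to 13 and 15109 TPM (344 to 184553) in clones 15 to 26. The 8 monocyte markers had medians of 12872 TPM (4075 to 20423) and 7825 TPM (2116 to 14717). The part of the marker levels, and of the higher mitochondrial share of clones 15 to 26, in the differences between the sets was not tested. Without clones 1, 5 and 10 only Gsr kept its call (-1.66, limma adjusted p = 0.0312). The other 5 had differences from -1.33 (Slc7a11) to -1.01 (Txnrd1) with limma adjusted p from 0.0662 to 0.186. With all clones they had lain between -2.03 and -1.57. Clones 1, 5 and 10 belong to the first set and were picked by their high monocyte levels. Leaving them out by itself shrinks the difference for genes high in them. The Gclm difference did not pass when 1 of the clones 1, 5, 10, 11, 13, 18, 19, 23 or 26 was left out (-1.53 to -1.38, limma adjusted p from 0.0537 to 0.0759).

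Within the monocyte state, the highest levels of most of these genes sat in the same clones. Clone 1 was the highest of 24 monocyte libraries for 7 of the 10 genes, Nqo1, Gclm, Gclc, Txnrd1, Srxn1, Slc7a11 and Prdx1, as it was for 11.1% of all genes tested. The 3 highest were exactly clones 1, 5 and 10 for 6 of the 10, as for 1.82% of all genes (201 of 11072). These 3 clones were picked from these same values, so the 2 shares are a description and no test. Clone 19 was among the 3 lowest for 8 genes, a count for which no share over all genes was taken. Nfe2l2 itself was less uneven: clones 1, 5 and 10 held 102, 79.9 and 81.2 TPM of it, while clone 15, with the highest Nfe2l2 (109 TPM), was not among the 5 highest for any of the other genes except Keap1. Keap1 in clones 1, 5 and 10 measured 12.2, 14.9 and 13.8 TPM.

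As progenitors these clones were among the high ones for some genes only. For Nqo1, clones 1, 5 and 10 measured 3.77, 1.90 and 0.489 TPM as progenitors, ranks 1, 3 and 14 of 24, and clone 1 ranked 2 for Gsr. Clone 1 measured 189 TPM of Gclm, 19.5 of Txnrd1, 3.80 of Srxn1, 0.600 of Slc7a11 and 203 of Prdx1 as a progenitor, ranks 3, 11, 11, 18 and 10 of 24. Clone 5 measured 150, 19.4, 4.16, 0.541 and 208 TPM of the same genes, ranks 8, 12, 10, 20 and 9. Clone 10 measured 89.7, 13.1, 1.63, 0.567 and 175 TPM, ranks 21, 21, 21, 19 and 14. Among progenitors, clone 22 was in the top 3 for 7 of the 10 genes and clone 23 for 5. The share over all genes was not taken for these counts, so they say nothing particular to the 10 genes. Clones 10, 1 and 5 also had the highest summed monocyte markers of the 24 monocyte libraries, 20423, 18354 and 15797 TPM, in a sum led by Lyz2. They ranked 15, 16 and 17 for neutrophil markers with 53764, 51990 and 37408 TPM. Clone 19 had the lowest summed monocyte markers (2116 TPM) and the highest summed mast cell and basophil markers (3156 TPM, against a median of 116). The 6 macrophage markers had a median sum of 8.06 TPM in progenitors and 785 TPM in monocytes, where clones 15, 5, 13, 11 and 1 were the highest (2984, 2820, 2314, 1916 and 1821 TPM) and clones 9 and 19 the lowest (69.6 and 30.8 TPM). The part of these marker levels in the order of the clones was not tested.

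**Figure D3:**
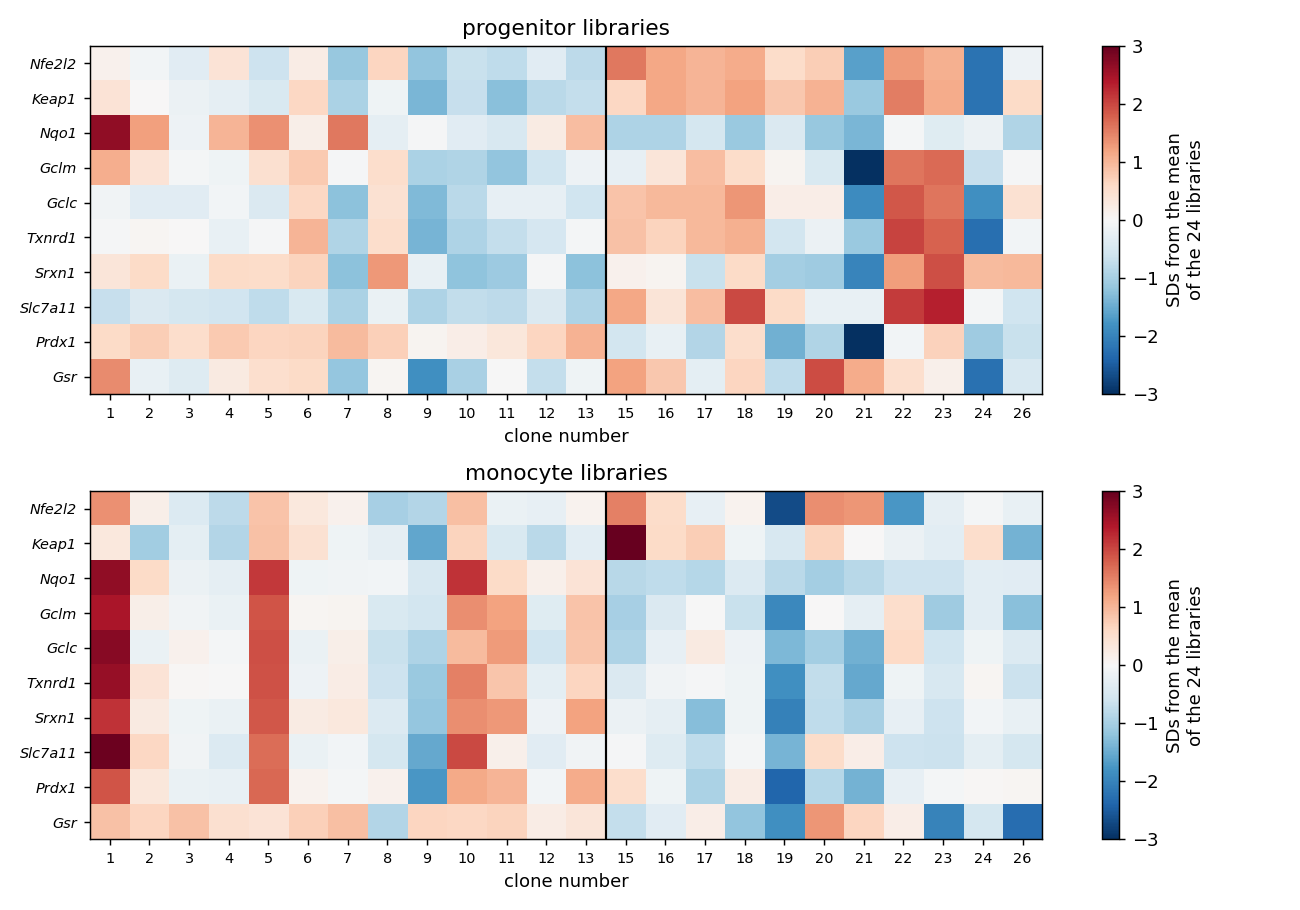
Level of each gene by clone within each state, as a z-score of log2(TPM + 1) over the 24 libraries of that state (colour scale, SD units), with clones in number order along the horizontal axis. In monocytes the columns of clones 1, 5 and 10 are high and that of clone 19 is low for most genes, and in progenitors those of clones 22 and 23 are high and those of clones 9, 21 and 24 are low. Progenitors 24, 9 and 21 also had the fewest genes at 1 TPM or more (8240, 9162 and 9339), and the part of this in their low columns was not tested.

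Correlations between the genes over clones describe the same pattern. They are descriptions, since the points share libraries and the scaling of TPM. Nqo1 was left out because its monocyte levels fall into 2 separate groups of clones. Over 24 monocyte libraries the 7 other NRF2 target genes had a median pairwise r of 0.808 (21 pairs, 0.187 to 0.949), with r = 0.95 for Gclc and Txnrd1 and 0.94 for Srxn1 and Prdx1. In progenitors their median r was 0.490 (-0.15 to 0.927). The median over all gene pairs was 0.167 in monocytes and 0.38 in progenitors. Without clones 1, 5 and 10 the monocyte median was 0.577, within clones 1 to 13 it was 0.898 and within clones 15 to 26 it was 0.472. Between Nfe2l2 and Gclc r was 0.93 in progenitors and 0.24 in monocytes, and between Nfe2l2 and Keap1 it was 0.92 and 0.55.

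**Figure D4:**
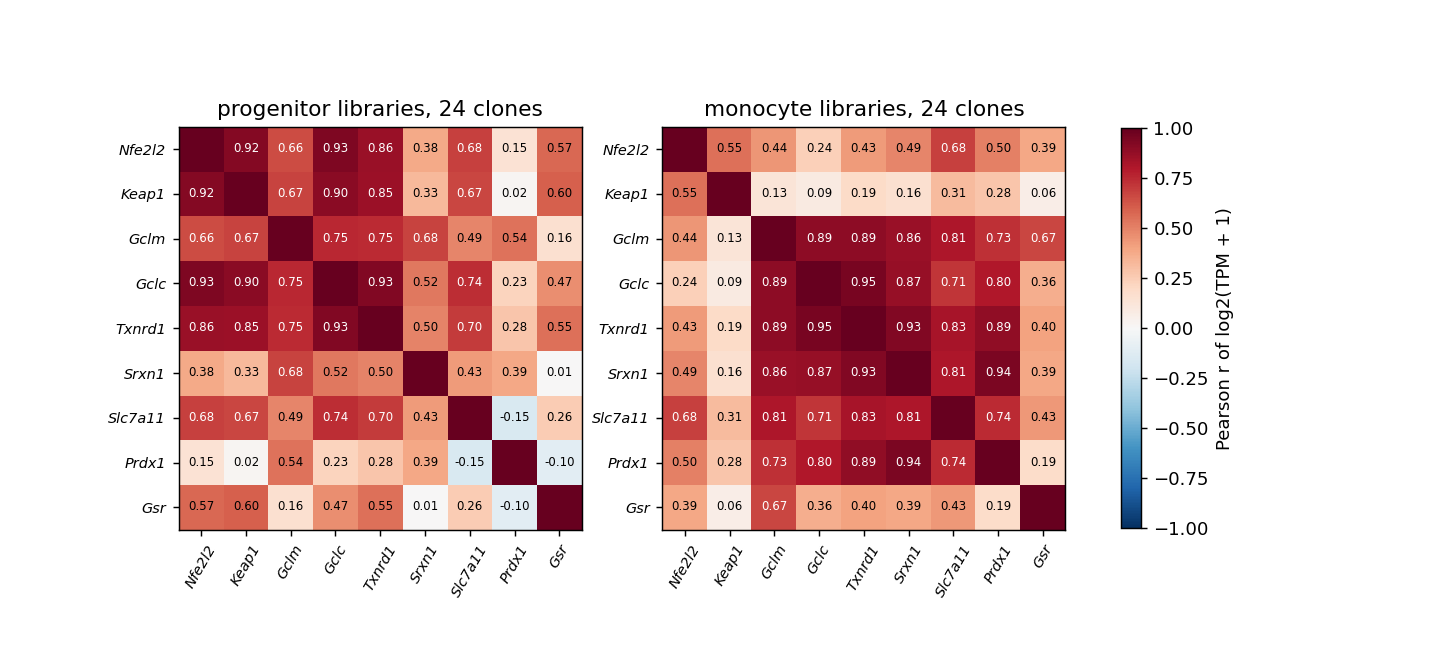
Pearson r of log2(TPM + 1) between 9 of the genes, Nqo1 left out, over 24 progenitor libraries and over 24 monocyte libraries (colour scale from -1 to 1). In monocytes Gclm, Gclc, Txnrd1, Srxn1, Slc7a11 and Prdx1 have the high values among themselves, and Keap1 and Gsr the low ones, while in progenitors Nfe2l2, Keap1, Gclc and Txnrd1 have the highest.

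Whether a clone that was high as a progenitor was also high as a monocyte was asked by the correlation between states over 24 clones. None of the 9 genes with a mean of at least 1 TPM in both states passed (one-sided permutation test, Benjamini-Hochberg adjusted over 9570 genes), where 3.74% of all genes did. Over all genes the median r was 0.125, and -0.053 within clones 1 to 13, where no gene passed. Prdx1 alone had an unadjusted p below 0.05, as 1788 of the 9570 genes did (r = 0.576, permutation p = 0.00277, adjusted p = 0.0633, rho = 0.450, permutation p = 0.0148). Without the 2 clones farthest from the progenitor median, 19 and 21, r was 0.376, so the relation rests in part on those clones, and it was 0.211 within clones 1 to 13 and 0.627 within clones 15 to 26. Without clones 21, 24 and 26 Prdx1 passed (r = 0.599, permutation adjusted p = 0.0462). With each set centred over all 24 clones Prdx1 had r = 0.422 (permutation adjusted p = 0.498). For the other 8 genes r lay between -0.32 (Slc7a11) and 0.207 (Keap1), and for Nfe2l2 it was -0.12. Nqo1 was taken within the 21 clones below the gap in its monocyte levels, with r = 0.635 (permutation p = 0.00145) and rho = 0.709 (permutation p = 0.00018). With each set centred that r was 0.169 (permutation p = 0.259), and within the sets it was 0.113 (n = 10, permutation p = 0.375) and 0.300 (n = 11, permutation p = 0.179, rho = 0.518, permutation p = 0.0542), so neither set passed alone. Leaving out clones 1, 5 and 10 by their monocyte level narrows the range of the first set.

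The genes most like the mean of the 8 NRF2 target genes were then listed, by r over the 48 libraries centred on state and set among 7613 genes, the 7612 with a mean of at least 5 TPM and Nqo1. Outside the 10 genes, the 5 most alike were Cat (r = 0.934), which encodes catalase, Gabarapl1 (0.900), Ninj1 (0.885), Galnt7 (0.874) and Sqstm1 (0.871). Sqstm1 encodes p62, a selective autophagy receptor that binds KEAP1. Of the genes themselves Nfe2l2 came at position 916, Keap1 at 2256 and Gsr at 4361. Their r with the target mean was higher within progenitors (0.832, 0.823 and 0.467) than within monocytes (0.592, 0.449 and 0.306). For Cat r was 0.827 within progenitors and 0.953 within monocytes. Cat measured 260, 199 and 102 TPM in the monocytes of clones 1, 5 and 10, against a median of 30.8 TPM. For Slc7a11 the most alike were Sqstm1 (0.860), Slc25a30 (0.801) and Ets2 (0.799). For Nqo1 the rule named Cyb5a, Slc39a4 and Sqstm1, which measured 1061, 122 and 1482 TPM in monocyte clone 1, against medians of 121, 1.68 and 291 TPM.

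Other genes of the pathway and its surroundings were counted in lists. Of 13 regulators of NRF2 tested, 7 were higher in monocytes and 1 was lower, with a median log2 change of 0.30. For this and the following lists, 32.4% of all genes tested were higher, 36.5% were lower and the median over all genes was -0.06, and no list was tested against them. Bach1, the repressor that competes with NRF2 for its elements, rose by 1.74 (SE 0.23, limma adjusted p = 1.33e-07, 22 of 24 clones), and Mafg, a small MAF partner, rose by 1.50. Palb2, whose product can bind KEAP1, fell by 0.57. Of 15 other NRF2 target genes 11 were higher and 2 lower (median 1.42). Hmox1, heme oxygenase 1, rose from 8.32 ± 18.1 to 241 ± 306 TPM (SD, n = 24), a log2 change of 4.59 (SE 0.41, limma adjusted p = 1.40e-10), in 24 of 24 clones. Its monocyte levels in clones 1, 5 and 10 were 1171, 896 and 332 TPM, against a median of 99.9 TPM. Blvrb, biliverdin reductase B, rose by 3.69 in 24 of 24 clones, and Gsta4, a glutathione transferase, fell by 1.55 and was lower in 22 of 24.

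Of 9 genes of NADPH supply, on which both reductases depend, 5 were higher and 4 lower. Pgd and G6pdx of the pentose phosphate pathway rose by 2.48 and 2.24, and Shmt2, a nuclear gene whose product works in mitochondrial folate metabolism, fell by 2.55. Of 11 further peroxiredoxin and thioredoxin genes 2 were higher and 4 lower (median -0.16), with Prdx5 up by 3.35 while Prdx4 and Prdx3 fell by 1.53 and 0.97. Of 16 genes of glutathione synthesis and use 9 were higher and 5 lower. The microsomal transferases Mgst1 and Mgst2 rose by 6.16 and 3.91, and the amino acid transporter gene Slc1a4 fell by 1.73. In the list of superoxide and peroxide removal Cat rose by 1.30 and Sod1, the cytosolic superoxide dismutase, fell by 1.18.

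All 6 genes of the phagocyte NADPH oxidase, the superoxide source of these cells, were higher (median 2.43), with Cybb, its catalytic subunit, up by 5.34 and Cyba up by 2.96, each in 24 of 24 clones. Of 9 genes of heme and iron handling 7 were higher and 1 lower, with Slc11a1, a phagosomal metal transporter, up by 4.87 and Tfrc, the transferrin receptor, down (-1.04). Of 12 genes of the ATF4 response none was higher and 8 were lower (median -0.63). Psat1 and Phgdh, enzymes of serine synthesis, fell by 3.65 and 2.69. Some genes count in more than 1 list, among them Hmox1, Cat and Txn1. These lists were chosen with earlier results known. Between the same states the median of the summed neutrophil markers went from 27.4 to 73434 TPM and that of the monocyte markers from 177 to 11516 TPM, and the part of this in the lists was not tested.

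**Figure D5:**
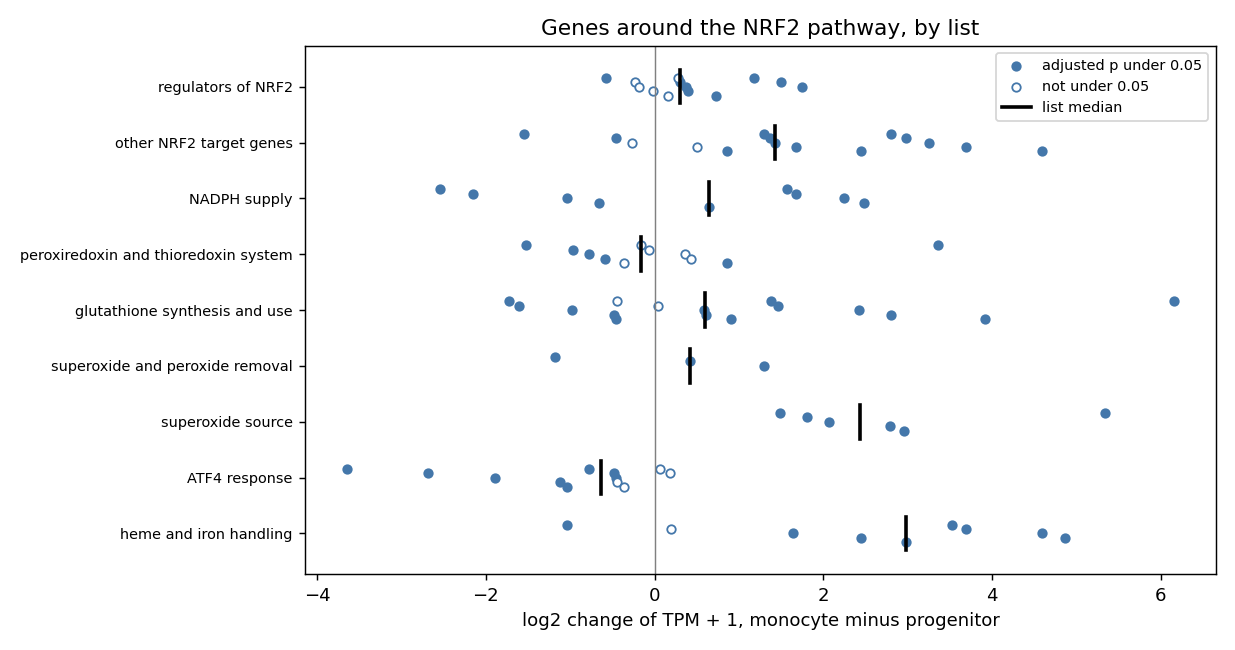
Log2 change from progenitor to monocyte for each tested gene of 9 lists around the NRF2 pathway (horizontal axis, log2(TPM + 1) scale), with filled points at a limma adjusted p below 0.05 and a bar at the median of the list. All 6 NADPH oxidase genes lie above 0, and no gene of the ATF4 list that passed does.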

How the data were processed

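The authors deposited 1 table of TPM by gene symbol (34643 rows, 48 libraries, column sums 982949 to 999250). Per the submitters' processing notes the tool was Salmon and the build mm10. Strandedness and annotation release were not found in the labels. TPM keep no depth, and a listed 0 may be a failed estimate.

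Groups came from the sample labels and clones from the numbers in the titles. Pairing of the states was taken from the design text, and limma blocked on clone accordingly. In 18 of 24 clones the paired libraries deviated together from the state means (r above 0.1). With each clone set centred 12 of 24 did so, 2 of them in clones 1 to 13 and 10 in clones 15 to 26. Once centred, clones 1 to 13 thus gave little sign of pairing in the values themselves. In total 26 rows named as calendar dates were left out. Genes with a mean of at least 1 TPM (11072) were fitted as log2(TPM + 1) with limma 3.58.1 in R 4.3.3, with a mean-variance trend, and p-values were Benjamini-Hochberg adjusted over all of them at 0.05. Correlations between states used 100000 permutations over 9570 genes with a mean of at least 1 TPM in both states and an SD of at least 0.25, with numba 0.67.0 and scipy 1.17.1 in Python 3.11.15 (numpy 2.4.6 and pandas 2.3.3). Figures used matplotlib 3.10.9. The 31-base words of the longest GENCODE M21 transcript of each gene were searched in all other genes. Named genes were the 10 members, from each list the 2 largest changes that passed and the largest the other way, the 5 genes most like the target mean and 3 each for Nqo1 and Slc7a11. S100a8 and S100a9, Lyz2, Ccr2, Txn1, and the copies and antisense gene named for shared sequence fall outside this rule or were chosen after values were seen. The members and lists were chosen with earlier results of these data known, and so were the clone sets. On simulated data the limma fit found 29.9%, 85.7% and 97.4% of changes between states of size 0.5, 1 and 2 (log2), and 4.35%, 31.3% and 82.1% for the difference between sets, with 6 false calls among 11072 genes in each. The correlation test recovered 22.7%, 83.1% and 100% at r of 0.5, 0.7 and 0.9. Alternatives were other pseudocounts, filters, scalings, clone sets and left-out clones.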

Additional observations from a re-analysis of the deposited data

Results flagged for a closer look

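The log2 change from progenitor to monocyte differed between clones 15 to 26 and clones 1 to 13 for 6 genes, by the limma interaction term with Benjamini-Hochberg adjustment over 11072 genes. The difference was -1.57 for Gclm, -1.60 for Gclc, -1.63 for Txnrd1, -1.81 for Srxn1, -2.03 for Slc7a11 and -1.60 for Gsr. The sets are not named in the sources, and 11.5% of all genes tested differed between them.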

How the results depend on the processing

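No called value turned its direction under any alternative run. Clones 15 to 26 alone gave 4 genes higher in monocytes and 1 lower. Without clones 1, 5 and 10, an alternative chosen after seeing the data, 6 were higher and 1 was lower, and 1 difference between the clone sets passed in place of 6. Leaving out each clone in turn gave 7 to 9 genes higher and 5 to 6 differences between the sets. Without the pairing, that is with no replicate block, 7 genes changed between states and 6 changes differed between the sets, the same numbers as with it. Leaving out mitochondrial, Gm-named and pseudogene entries moved the median of all genes from -0.06 to -0.25, and 6 genes were then higher. Median-of-ratios scaling gave 9. Of the correlations between states, 1 passed without clones 21, 24 and 26 and 1 with those entries left out (Prdx1 in both), in place of 0. The median correlation between the 10 genes in monocytes was 0.666 over all clones and 0.352 in clones 15 to 26, and with Nqo1 left out it was 0.526 and 0.353. Without clones 21, 24 and 26 the change of Nfe2l2 also differed between the sets (-0.90, limma adjusted p = 0.0373). With no filter on low values the difference for Gclm did not pass (limma adjusted p = 0.0699). At a mean of at least 5 TPM Nqo1 was not tested. The causes of these shifts were not tested. The read depth behind levels under 1 TPM, as for Nqo1 in clones 15 to 26, is unknown.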
